A study of Mus musculus with 6 samples.

Results

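The 10 genes described here encode ligands of the epidermal growth factor (EGF) type (Egf, Tgfa, Hbegf, Btc, Nrg2, Nrg3 and Nrg4) and the ErbB receptors other than ErbB4 (Egfr, Erbb2 and Erbb3). They were taken by gene name from a table of 53715 annotated genes. Of the 10, 9 had enough counts to test, among 16478 tested genes. Each ligand is made as a membrane-anchored precursor, and a protease on the cell surface can release its EGF domain, which binds an ErbB receptor on the same or a neighbouring cell. Bound receptors pair, phosphorylate each other and feed the ERK and PI3-kinase pathways. EGFR binds EGF, TGF-alpha, HB-EGF and betacellulin, whereas the neuregulins bind ErbB3 or ErbB4. ErbB2 has no ligand of its own and ErbB3 has a weak kinase, so these receptors act mainly in pairs with others.

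The RNA came from hippocampi of 6 adult male C57BL/6J mice, an inbred laboratory strain, aged 2 to 3 months. For 3 weeks 3 mice ate a control diet and 3 a ketogenic diet, which is rich in fat and poor in carbohydrate. No genetic change or further agent is named in the labels. The libraries are called control 1 to 3 and ketogenic 1 to 3. Their gene counts summed to between 16832240 and 18357792.

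The labelled tissue was compared with marker lists. All 4 CA1 pyramidal cell markers (688 to 803 summed CPM) and all 5 dentate granule cell markers (247 to 761 summed CPM) had counts to test in these libraries. So had all 5 subicular and cortical markers, so that having counts to test does not single out the hippocampus. One protocol label names retina, but all 6 retina markers were too low for testing, and their summed level lay between 0.828 and 1.65 CPM. CPM are gene counts relative to the scaled size of their library, and a summed CPM adds the genes of a list. Marker genes of other cells differed between the libraries along with diet. The 10 choroid plexus markers summed to 7267, 3770 and 802 CPM in control 1, 2 and 3, and to between 57.3 and 104.9 CPM in the ketogenic libraries, and all 10 passed the test as lower. In a bulk sample fewer cells of a type and less RNA per cell cannot be told apart.

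The receptor genes are related in sequence, so it was checked how far their reads can be told apart. The stretch below encodes the catalytic loop of the kinase, one of the most conserved parts of the receptors, and capitals mark bases that differ from Egfr. Erbb4, the fourth receptor, is shown for comparison. Sequences are read 5′ to 3′ on the strand of the gene from GENCODE release M21 transcripts (GRCm38), each inside 1 exon, at chr11:16904338-16904361 on the plus strand for Egfr, chr11:98434247-98434270 on the plus strand for Erbb2, chr10:128572533-128572556 on the minus strand for Erbb3 and chr1:68080739-68080762 on the minus strand for Erbb4.
Egfr: caccgtgacttggcagccaggaat
Erbb2: cacAgGgacCtAgcTgccCgAaaC
Erbb3: caTAgGgacCtTgcGCTcCggaat
Erbb4: caTcgGgaTCtggcagccCgCaat
Of these 24 bases, 8 differed from Egfr in Erbb2, 9 in Erbb3 and 6 in Erbb4. Over all annotated transcripts, the longest identical stretch shared by any pair of family genes was 22 bases, between Erbb2 and Erbb4. Erbb3 shared at most 17 bases in a row with another receptor.

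The first question was how much of each ligand and receptor message the hippocampus held. Levels of different genes were compared as the deposited FPKM, a unit that divides counts by gene length and by library size. The ligand genes fell into an abundant and a scarce group. Nrg3 had 6.63 FPKM on average over the 6 libraries (lowest 6.33, highest 6.97) and Tgfa 6.33 (4.59 to 7.84). Hbegf followed at 4.24 FPKM (3.45 to 5.05) and Nrg2 at 2.70 (2.11 to 3.94). These 4 genes made up between 94.6% and 96.6% of the summed ligand FPKM in each library, a sum without the ligand gene Areg. The scarce ligands were Nrg4 at 0.185 FPKM (0.0966 to 0.289), Egf at 0.133 (0.0901 to 0.235) and Btc at 0.0879 (0.0260 to 0.154). Egf itself, the ligand that names the family, thus stood far below Tgfa. Among the receptors, Erbb3 had 2.03 FPKM (1.45 to 2.97), Egfr 1.37 (1.1 to 1.89) and Erbb2 0.831 (0.681 to 1.13), all below Erbb4 at 6.21 (4.60 to 8.96). Over the 6 libraries every gene overlapped its next neighbour in this order. Within the control diet Tgfa lay clear above Erbb4, Erbb4 above Hbegf, Erbb3 above Egfr and Erbb2 above Nrg1, and the other neighbours overlapped. Within the ketogenic diet Nrg3 lay clear above Tgfa, Erbb4 above Hbegf, Hbegf above Nrg2, Nrg2 above Erbb3, Egfr above Erbb2 and Nrg1 above Nrg4. Levels per length use the gene length given in the table, which need not be that of the isoform in use.

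**Figure D1:**
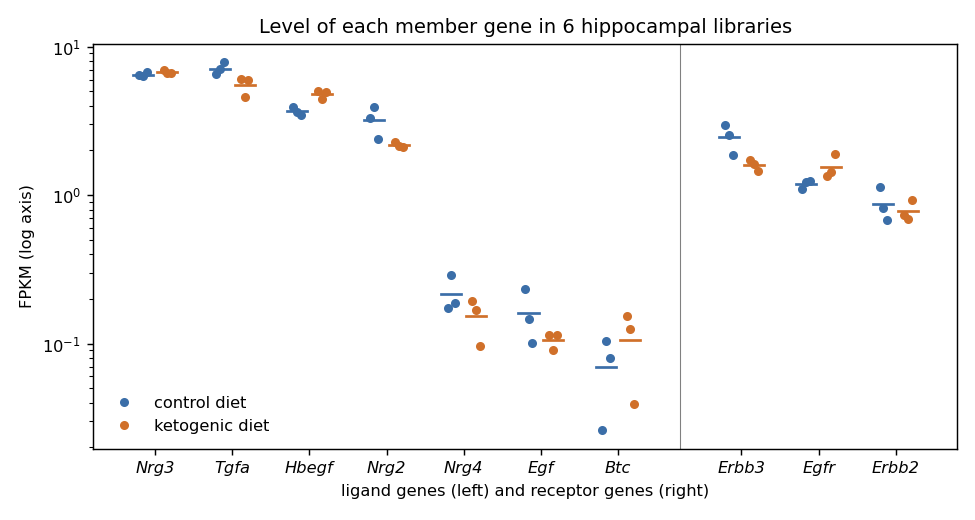
FPKM on a log axis of the 7 ligand genes and 3 receptor genes, with 1 point per library and a line at the mean of each diet (n = 3). Nrg3, Tgfa, Hbegf and Nrg2 lie above 2 FPKM in all 6 libraries, and Nrg4, Egf and Btc below 0.3 FPKM.

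The main question was whether diet changed these genes. Differences are log2 fold changes, positive where the ketogenic libraries were higher, with ± their standard error. The adjusted p-values come from the quasi-likelihood test of edgeR, with Benjamini-Hochberg adjustment across all 16478 tested genes. At an adjusted p under 0.05, 1 of the 9 tested members fell (Erbb3), none rose and 8 did not pass. Over all tested genes 9.67% passed, and 4.62% as lower, so 1 of 9 is near the background. DESeq2, another test of counts, called 2 of 10 members lower and none higher, beside 1853 of 17451 genes (10.6%) in either direction and 5.21% as lower. At an unadjusted p under 0.05 edgeR had 5 members, where 23.1% of all tested genes reached it. The diets did not overlap in 5 members (Egfr and Hbegf higher, Tgfa, Nrg2 and Erbb3 lower), beside 27.6% of all tested genes, of which 14.0% as higher and 13.6% as lower. Of the 9 log2 fold changes, 3 were above 0 and 6 below. Their median was -0.37, the value of Tgfa, which did not pass, against -0.01 over all tested genes.

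**Figure D2:**
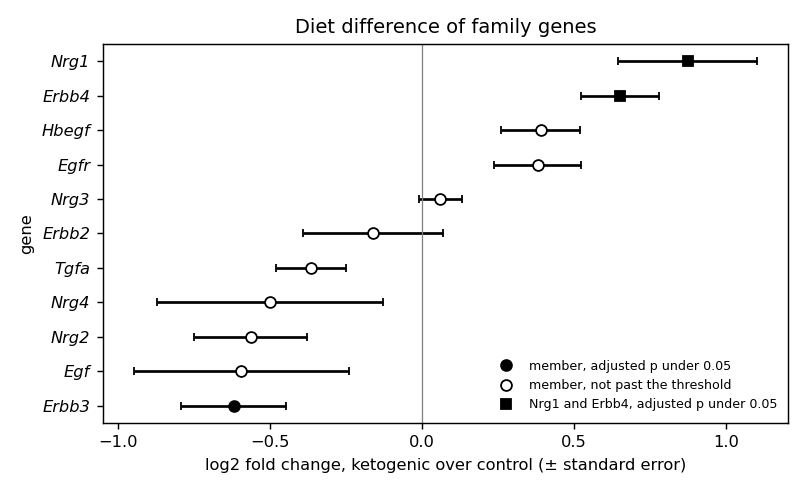
Log2 fold change of ketogenic over control diet with its standard error for the 9 tested members (circles) and for Nrg1 and Erbb4 (squares). Filled symbols passed an adjusted p under 0.05, which among the members is Erbb3 alone, at -0.62.

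Of the ligands of EGFR, Tgfa encodes TGF-alpha (chromosome 6, 86195223 to 86275719, plus strand, positions here and below as deposited and on GRCm38). It had 42.5, 46.1 and 51.2 CPM in control 1, 2 and 3 and 39.7, 30.1 and 38.8 CPM in ketogenic 1, 2 and 3. All ketogenic libraries lay below all control libraries, by a gap smaller than the spread within either diet. The difference was -0.37 ± 0.12 and missed the threshold (adjusted p = 0.0805). Over 15 alternatives that kept at least 2 libraries of each diet its adjusted p ranged from 0.0102 to 0.258, and it passed with DESeq2 (0.0428) and without a filter on low counts (0.0102).

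Hbegf encodes HB-EGF, a heparin-binding ligand of EGFR and ErbB4 (chromosome 18, 36504929 to 36515805, minus strand). Its level was 9.35, 8.75 and 8.23 CPM under the control diet, against 12.1, 10.6 and 11.8 CPM under the ketogenic diet. The diets were apart, and each varied little within itself. The difference of 0.39 ± 0.13 did not pass (adjusted p = 0.0936), nor did it in any of the 15 alternatives, where it lay between 0.32 and 0.44.

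Egf had 2.66, 1.65 and 1.15 CPM under the control diet, against 1.29, 1.02 and 1.30 CPM under the ketogenic diet. Control 1 was the highest library, and control 3 lay within the range of the ketogenic libraries. The difference was -0.59 ± 0.35 (adjusted p = 0.367). Btc, the betacellulin gene, was too low to test in edgeR. DESeq2 gave all 10 members an adjusted p and did not call Btc. Over the control libraries Btc had 16 counts in all (exact 95% Poisson interval 9.15 to 26.0), and 26 over the ketogenic libraries (17.0 to 38.1). These intervals overlap and cover counting error only.

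The neuregulin genes differed from one another. Nrg3, which encodes a neuregulin of neurons that binds ErbB4 (chromosome 14, 38368952 to 39473088, minus strand), varied little. It had 44.1, 43.6 and 46.0 CPM under the control diet, against 47.9, 45.7 and 45.8 CPM under the ketogenic diet. The diets overlapped, with a difference of 0.06 ± 0.07 (adjusted p = 0.685).

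Nrg2 encodes a ligand of ErbB3 and ErbB4 (chromosome 18, 36017707 to 36197380, minus strand). It had 10.3, 12.2 and 7.44 CPM under the control diet, against 7.06, 6.66 and 6.54 CPM under the ketogenic diet. The ketogenic libraries were nearly alike, and control 3 lay much closer to them than control 1 and 2 did. The difference was -0.56 ± 0.19 (adjusted p = 0.0913). It passed without control 3 (-0.74, adjusted p = 0.0141) and without a filter (0.0315), and over the 15 alternatives its adjusted p reached 0.328. Nrg4, a ligand of ErbB4, had 1.06, 1.77 and 1.15 CPM under the control diet, against 1.19, 1.02 and 0.590 CPM under the ketogenic diet. The diets overlapped, with a difference of -0.50 ± 0.37 (adjusted p = 0.482). An exon of Fbxo22 on the opposite strand overlaps Nrg4 by up to 202 bases and Fbxo22 had 2630 counts against 117 for Nrg4, so part of the Nrg4 counts may belong to Fbxo22 if strand was not used.

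Of the receptors, Erbb3 (ENSMUSG00000018166, chromosome 10, 128567523 to 128589652, minus strand) was the member that fell. It encodes a neuregulin receptor that in the brain is found mainly in the oligodendrocyte lineage. It had 18.0, 15.4 and 11.3 CPM under the control diet, against 10.5, 9.79 and 8.78 CPM under the ketogenic diet. The diets did not overlap, but control 3 lay closer to the ketogenic libraries than to control 1. The difference was -0.62 ± 0.17 with an adjusted p of 0.0497, just inside the threshold. Of the 6 fits that each leave out 1 library, the call was kept in the fit without control 3. It was lost without control 1 (adjusted p = 0.156), control 2 (0.159), ketogenic 1 (0.0713), ketogenic 2 (0.160) and ketogenic 3 (0.147). Over the 15 alternatives it passed in 5, with an adjusted p between 0.0032 and 0.160.

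Egfr encodes the EGF receptor, in the adult brain a receptor of glia and of neural progenitors (chromosome 11, 16752203 to 16918158, plus strand). It had 12.5, 14.1 and 14.2 CPM under the control diet, against 15.3, 16.4 and 21.5 CPM under the ketogenic diet. The diets did not overlap, and ketogenic 3 stood above the rest. The difference of 0.38 ± 0.14 did not pass (adjusted p = 0.141, and 0.0848 to 0.408 over the 15 alternatives). Erbb2, on the same chromosome (98412470 to 98437716, plus strand), had 5.92, 4.31 and 3.57 CPM under the control diet, against 3.88, 3.64 and 4.83 CPM under the ketogenic diet. The diets overlapped, with a difference of -0.16 ± 0.23 (adjusted p = 0.745). Without control 1 the Erbb2 difference was 0.06.

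Relative abundance within the family was then compared, as the share of each gene in the summed FPKM of the 4 receptor genes, or of the ligand genes, of a library. Erbb3 held 30.3%, 26.2% and 21.6% of receptor FPKM in the control libraries and 17.7%, 13.9% and 10.99% in the ketogenic libraries, a mean of 26.1% ± 4.34 against 14.2% ± 3.39 (SD, n = 3). Every ketogenic library lay below every control library. Erbb2 held 9.31% ± 1.92 and 6.85% ± 0.827 of receptor FPKM, a difference of -2.46 percentage points that turned to 0.68 (exact permutation p = 0.6) with Erbb4 left out of the sum. The share of Egfr was 12.8% ± 1.62 and 13.5% ± 0.987, a difference smaller than the spread within the diets. Erbb4 took the remainder, with 51.8% ± 4.55 and 65.5% ± 3.97.

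Among the ligands, Hbegf held 18.7%, 16.7% and 16.3% of ligand FPKM in the control libraries and 23.6%, 23.6% and 23.9% in the ketogenic libraries. Its share was thus nearly constant within the ketogenic diet and above every control library. Tgfa held 33.5% ± 3.17 and 27.2% ± 2.44, and Nrg3 30.5% ± 1.45 and 33.4% ± 1.61. Nrg2 held 15.1% ± 3.38 and 10.8% ± 0.582, a difference of -4.32 percentage points, and control 3 (11.36%) lay below ketogenic 2 (11.38%), so that the diets overlapped (exact permutation p = 0.2). The share of Nrg2 was not among the 6 adjusted for together, which were those of the receptors and of the 3 most abundant ligand genes. In 2-sided exact permutation tests the shares of Erbb3, Erbb2, Hbegf, Tgfa and Nrg3 each gave p = 0.1, the smallest that 3 against 3 libraries allow, or 0.12 adjusted over the 6 shares tested, and Egfr gave 0.7. No share could therefore pass 0.05. With Erbb4 and Nrg1 left out of the sums, the share of Egfr was 12.3 percentage points higher with the ketogenic diet. Its exact permutation p was 0.1. The difference of the Erbb3 share in that setting was -12.97 percentage points. Shares of the remaining receptors have a fixed total, so these differences are not separate results.

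**Figure D3:**
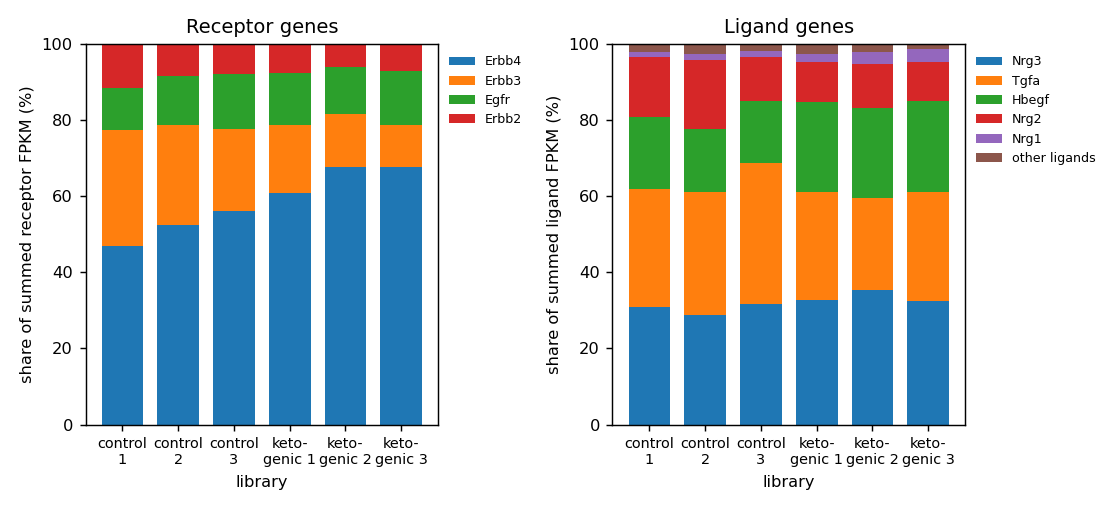
Stacked shares of summed receptor FPKM (left) and ligand FPKM (right) in each of the 6 libraries, from 0 to 100%. The Erbb3 part is between 21.6% and 30.3% in the control libraries and between 10.99% and 17.7% in the ketogenic libraries, and the Hbegf part is wider in all 3 ketogenic libraries.

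Ratios between members within a library do not depend on how libraries were scaled. The ratios given were chosen after values were seen and were not tested. Tgfa over Nrg3 was 1.01, 1.11 and 1.17 in the control libraries and 0.870, 0.691 and 0.890 in the ketogenic libraries. By FPKM, Tgfa was thus the most abundant ligand gene in every control library and Nrg3 in every ketogenic library. In control 1 this order rests on the gene lengths used, since Nrg3 had 44.1 CPM there and Tgfa 42.5 CPM. Hbegf over Nrg2 was 1.18, 0.928 and 1.44 in the control libraries and 2.22, 2.08 and 2.34 in the ketogenic libraries. Erbb3 over Egfr was 2.70, 2.06 and 1.496 in the control libraries and 1.29, 1.12 and 0.771 in the ketogenic libraries. By FPKM, Egfr was thus the higher of the pair in ketogenic 3 alone. In CPM, which leave out gene length, Egfr was the higher in control 3 and in every ketogenic library. The summed ligand FPKM over the summed receptor FPKM was 2.13, 2.27 and 2.46 in the control libraries and 2.20, 1.62 and 1.56 in the ketogenic libraries, which overlap.

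The values of Erbb3 were set beside marker genes of the cells that could carry it. Of 12 myelin markers 10 fell and none rose, with a summed level of 5539 to 7002 CPM under the control diet, against 2952 to 4027 CPM under the ketogenic diet. Of 7 oligodendrocyte precursor markers 1 fell, Sox10, a transcription factor of the whole oligodendrocyte lineage, from 51.4 ± 6.46 to 32.4 ± 1.31 CPM (-0.66 ± 0.10, adjusted p = 0.00333). It is named because it was the marker called. The other 6 did not pass, 2 of them above and 4 below 0. Pdgfra, the receptor gene that defines the precursors, had 62.7 ± 2.19 and 76.0 ± 7.51 CPM, with the ketogenic libraries all higher (0.28 ± 0.08, adjusted p = 0.0636). Cspg4 stood at 0.27 (0.163), Olig1 at -0.13 (0.441), Vcan at -0.12 (0.617), Olig2 at -0.10 (0.665) and Gpr17 at -0.02 (0.967). The precursor sums of 350.2 to 373.6 and 322.3 to 360.7 CPM overlap. Within the control diet, control 1 had the most Erbb3 and the most choroid plexus transcripts and control 3 the least of both, while control 1 had the lowest myelin sum. Erbb3, Hbegf, Egf and Erbb2, 4 of the 9 tested members, had the same order of the control libraries as the choroid plexus sum. Of all tested genes 21.1% had this order. Egfr and Tgfa had the opposite order, which 20.99% of all tested genes had. Leaving out control 1 and 2 leaves 1 control library, so that the spread comes from the ketogenic libraries alone, and the differences are given as values with no test. They were -0.22 for Erbb3, -0.14 for Nrg2, 0.48 for Hbegf and -0.50 for Tgfa. The part of these marker differences in the results was not tested.

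**Figure D4:**
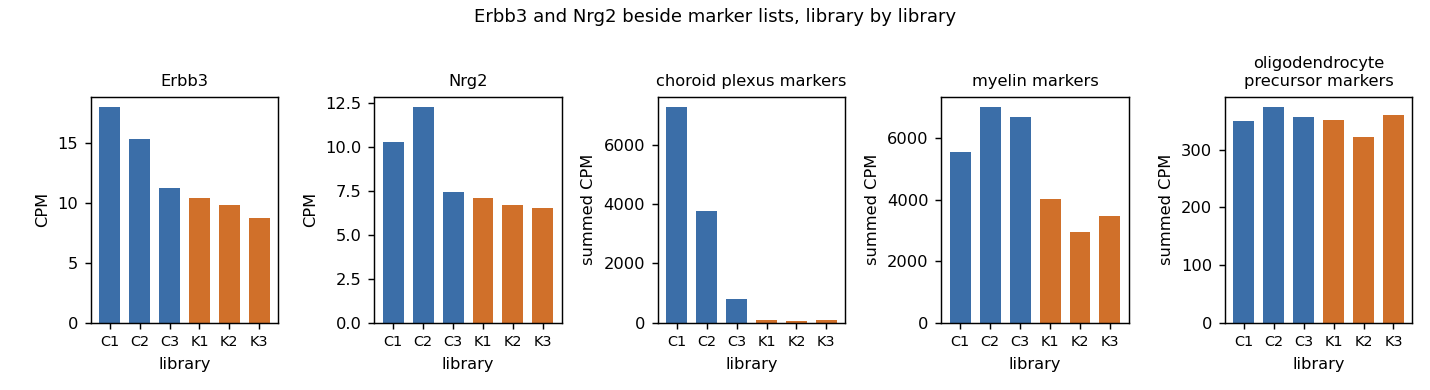
Erbb3 and Nrg2 in CPM and the summed CPM of choroid plexus, myelin and oligodendrocyte precursor markers in control 1 to 3 (C1 to C3, blue) and ketogenic 1 to 3 (K1 to K3, orange). Erbb3 is between 11.3 and 18.0 CPM in the control libraries and between 8.78 and 10.5 CPM in the ketogenic libraries. The choroid plexus sum is highest in control 1 at 7267 CPM, and the precursor sums overlap between the diets.

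The other marker lists give the context of the neuronal and astrocytic members. Of 9 interneuron markers 7 rose, with 633 to 647 summed CPM in the control and 876 to 1148 CPM in the ketogenic libraries. Of 5 dentate granule cell markers 4 fell, from sums of 623 to 761 CPM to 247 to 431 CPM. Of 4 CA3 markers 3 fell, of 5 subicular and cortical markers 4 rose, and of 6 fibroblast and mural markers 4 rose. The 4 CA1 markers split into 2 higher and 2 lower. None of the 9 astrocyte, 6 microglia and 5 endothelial markers passed. Astrocyte sums were 5127 to 5586 CPM and 5274 to 5524 CPM, beside the Egfr values above.

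The genes with profiles most like that of Erbb3 over the 6 libraries were Dmrta2, Abhd2 and Prps2. They had the smallest root mean square differences from it in centred log2 CPM, at 0.056, 0.064 and 0.065, of 15128 genes compared. Since they were chosen for this profile, which fixes that they are lower with the ketogenic diet, their differences of -0.65, -0.54 and -0.52 are a description with no test. Dmrta2 had 8.58, 7.09 and 5.02 CPM under the control diet, against 4.85, 4.10 and 4.19 CPM under the ketogenic diet.

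The rest of the family comprises Nrg1, Erbb4, Ereg and Epgn in the table. Nrg1 rose from 3.40 ± 0.568 to 6.24 ± 1.48 CPM (0.87 ± 0.23, adjusted p = 0.0389) and Erbb4 from 60.1 ± 2.93 to 94.4 ± 19.1 CPM (0.65 ± 0.13, adjusted p = 0.0116). Both calls were lost in several alternatives, 8 of 15 for Nrg1 and 2 of 15 for Erbb4. Epgn, the epigen gene, had 5 counts over the 6 libraries. Ereg, the epiregulin gene, had 0 counts, which allows up to 0.162 to 0.182 CPM per library.

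The genes around the receptors were taken from 5 lists. Of their 57 tested genes 2 rose and 5 fell, 12.3% beside 9.67% of all tested genes, with a median log2 fold change of 0.01. None of 9 genes of ligand and receptor processing passed in edgeR's test. They include the sheddases that release the ligands, with Adam10 at 0.00 ± 0.07 (adjusted p = 0.981), Adam17 at 0.05 ± 0.13 (0.880) and Bace1 at 0.11 ± 0.08 (0.437).

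Of 10 inhibitors of ErbB receptors 1 rose and 1 fell. Lrig1, which promotes receptor breakdown, rose by 0.49 ± 0.12 (adjusted p = 0.0321). Ptpn1, a phosphatase of receptor kinases, fell as well (-0.38 ± 0.11, adjusted p = 0.0491). Of 15 adaptors and partners 2 fell and none rose. These were Erbin, whose product binds ErbB2 (-0.53 ± 0.12, adjusted p = 0.0243), and Gab1, a docking protein for receptor kinases (-0.46 ± 0.12, adjusted p = 0.0396). In both, control 3 lay nearest to the ketogenic libraries, as for Erbb3. Gab1 had 42.7, 35.2 and 30.6 CPM under the control diet, against 27.2, 24.6 and 26.8 CPM under the ketogenic diet. Against control 3 alone, a value with no test, Gab1 stood at -0.22 and Erbin at -0.18.

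Downstream, 1 of 11 genes of the ERK cascade rose and none fell. Mapk3, which encodes the kinase ERK1, rose from 161.2 ± 7.69 to 199.1 ± 5.99 CPM (0.30 ± 0.06, adjusted p = 0.0127). Of 12 feedback and target genes of ERK 2 fell and none rose. Dusp4, a phosphatase that switches off ERK, had 36.3, 39.4 and 36.7 CPM under the control diet, against 23.4, 22.8 and 18.4 CPM under the ketogenic diet. The diets were far apart against the spread within each, at -0.80 ± 0.11 (adjusted p = 0.00218), and Dusp4 passed in all 15 alternatives. Spry2, an inhibitor of receptor kinase signalling, fell from 39.9 ± 2.26 to 30.5 ± 1.49 CPM (-0.39 ± 0.09, adjusted p = 0.0189). Other targets did not pass, among them Egr1 at -0.21 (adjusted p = 0.291), Dusp6 at -0.30 (0.137) and Etv5 at 0.15 (0.565). Of the 7 called genes of these lists, the others than Dusp4 lost their call without ketogenic 2, with adjusted p from 0.0883 for Mapk3 to 0.186 for Ptpn1. Of the 15 alternatives Ptpn1 passed in 6, Lrig1 and Gab1 in 8 each, Erbin in 9, Spry2 in 11 and Mapk3 in 13.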

How the data were processed

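Unscaled read counts for Ensembl genes and FPKM values were deposited by the authors for each of the 6 libraries. Per the submitters' processing notes, CASAVA, featureCounts 1.5.0-p3, DESeq2 1.10.1 and the build mm9 were used. For the aligner and the strand setting, nothing is given in the sources used here. GENCODE release M21 (GRCm38) holds 53620 of the gene identifiers, 97.1% of them with identical coordinates. Of the 14 family genes in the table, 12 had identical coordinates. Positions are therefore given as deposited and as GRCm38.

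The count test was edgeR 4.0.16 in R 4.3.3 (filterByExpr, TMM scaling, quasi-likelihood F-test, no covariate). The fit was also run on simulated counts that gave every gene the same relative spread between libraries. That is simpler than these data, so the run says nothing about errors in them. The standard error is the log2 fold change over the square root of F. CPM use TMM-scaled sizes. The median standard error over tested genes was 0.13. Libraries of 1 diet differed by more than counting noise (chi-square per degree of freedom 5.81 to 17.2), and no label says that replicates share a cage or day. Alternatives were other scalings, filters and thresholds, DESeq2 1.42.0, limma-voom, limma 3.58.1 on log2 FPKM with a pseudocount of 1 or 0.1, a block on the replicate number, and libraries left out. The members, lists and alternatives were chosen with earlier results of these data known. Named are all members, the genes of pathway lists past the threshold, and the 3 genes with profiles most like a called member. Marker lists are given by sums, a departure from the rule, and Adam10, Adam17, Bace1, Egr1, Dusp6, Etv5 and the 7 precursor markers were named after their values were seen. The level of Areg was not analysed here, and Areg is in none of the ligand sums or shares.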

Additional observations from a re-analysis of the deposited data

How the results depend on the processing

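The count of 1593 genes past the threshold became 2462 without a filter, 1060 with limma on log2(FPKM + 1), 289 when control 1 and 2 were both left out, 587 at an adjusted p under 0.01, and 538 to 1877 with 1 library left out (538, 885 and 677 with ketogenic 2, ketogenic 3 or control 2 missing). The fit without control 1 and 2 has 1 control library, assumed to vary like the ketogenic ones, so its counts and values say nothing about stability. Of the 9 tested members, 1 was called lower. This count was 0 with upper-quartile scaling, a filter at a mean of 1 CPM, limma-voom, limma on log2 FPKM with either pseudocount, control 1 and 2 left out, and an adjusted p under 0.01. It was 3 without a filter, 2 with DESeq2, 3 at an adjusted p under 0.1, and 0 to 2 with 1 library left out. Without a filter the log2 fold changes of Erbb4 and Hbegf hardly moved. Yet edgeR's adjusted p went from 0.0116 to 2.3e-09 for Erbb4 and from 0.0936 to 0.165 for Hbegf. Calls from that fit, such as those of Tgfa and Nrg2, therefore rest on the filter and not on a larger difference. The count of members called higher was 0, and 1 at an adjusted p under 0.1. The difference of Erbb2 turned to 0.061 without control 1 and 0.205 without control 1 and 2, and that of Egf to 0.068 without control 1 and 2. With the replicate number as a block 1504 genes passed, and Erbb3 remained the 1 member called. Same-numbered libraries had correlations of their deviations from the diet means of -0.043, 0.072 and 0.047. Differently numbered libraries had values from -0.147 to 0.089. With so few libraries per diet these values cannot decide whether replicates shared a cage or day.

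Share differences, in percentage points, ranged with 1 library left out from -0.15 to 1.46 for Egfr, -3.16 to -1.36 for Erbb2, -14.1 to -9.73 for Erbb3, -7.43 to -4.48 for Tgfa, 6.01 to 7.23 for Hbegf and 2.01 to 3.57 for Nrg3. Without control 1 and 2 they were -0.998 for Egfr, -7.42 for Erbb3, -9.90 for Tgfa and 7.42 for Hbegf. With Erbb4 and Nrg1 left out of the sums that of Egfr was 12.3, that of Erbb3 was -12.97 and that of Erbb2 turned to 0.68. Beyond what these settings do by construction, causes were not tested. Counts of 156 for Egf, 117 for Nrg4 and 42 for Btc over 6 libraries limit what can be seen of these genes.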
